A study of Mus musculus with 9 samples.

Results

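RNA of 9 complement genes was followed here in cultures of neonatal mouse cardiac fibroblasts: C1qa, C1qb, C1qc, C3, C4b, Cfb, Serping1, C3ar1 and C5ar1. They were taken by symbol from a table of 34779 named genes, and all 9 were found. The 9 libraries form 3 groups of 3, all from wild-type cells infected with a virus 24 h after seeding and collected on day 14. The MGT+TMP269 group was given both the MGT virus and TMP269, a compound known to inhibit class IIa histone deacetylases and labelled as an inhibitor of HDAC4. The MGT group received the MGT virus alone, which in common usage carries Mef2c, Gata4 and Tbx5, factors used for converting fibroblasts towards cardiomyocytes. The DsRed group received a virus for a red fluorescent protein as the negative control. The dose of TMP269 is not given in the labels. The replicates are numbered as biological, but no culture or animal is named, so the spread behind the p-values is that of these libraries and may be technical.

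Complement is a cascade of blood and tissue proteins that tags cells and debris for removal. C1q, assembled from the products of C1qa, C1qb and C1qc, recognises targets and starts the classical pathway, and macrophages are its main source in most tissues. C3 and C4b code for the central proteins that are cleaved and deposited, Cfb codes for factor B of the alternative pathway, and Serping1 codes for the C1 inhibitor. Fibroblasts and other stromal cells can make these components. C3ar1 and C5ar1 are receptors for the small fragments released from C3 and C5, and are known best from myeloid cells.

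With TMP269, the C1q chains, both receptors and 2 of the 4 stromal components, C3 and Serping1, fell against MGT alone. The C1q chains had the largest fold changes of the 9 genes, and Cfb and C4b were not called. C1qa, C1qb and C1qc were 45.4-fold, 37.7-fold and 31.5-fold lower with TMP269, the receptors C5ar1 and C3ar1 17.0-fold and 5.35-fold lower, and Serping1 and C3 3.41-fold and 2.41-fold lower. limma, a linear-model test fitted across all genes, called 7 of the 9 lower at an adjusted p under 0.05, and 6 when MGT replicate 1 or 3 or MGT+TMP269 replicate 1 or 2 was left out. By the same rule 5.97% of the 13228 tested genes were called lower, 3.32% higher and 9.29% either way. MGT+TMP269 and MGT did not overlap for 8 of the 9, where 49.3% of tested genes did not. Between MGT and DsRed only C3 was called, and it was lower (4.18% of tested genes were called lower, 8.14% higher and 12.3% either way). Those groups did not overlap for 2 of the 9, C3 and C4b, and for 28.7% of tested genes. Against DsRed, MGT+TMP269 had 8 of 9 called lower, where 8.06% of tested genes were lower, 14.7% higher and 22.8% either way. The groups did not overlap for 8 of the 9 and for 41.9% of tested genes. Both counts include C4b, which reached the mean of 1 TPM needed for testing only through its level in DsRed. They also include Cfb, whose call was lost when any 1 of 7 libraries was left out. These comparisons share libraries with each other, so their values are set side by side and not counted as separate evidence.

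Values are TPM, a library's transcripts scaled to a fixed total, which correct for transcript length, so levels of different genes can be compared. Totals lay between 988020 and 988999 TPM per library, and read depth is unknown with this unit. DsRed replicate 2 stood apart, with an upper-quartile TPM of 5.36 against 8.66 to 9.54 in the other 8 libraries. Its correlation with the other DsRed libraries across genes was 0.942 and 0.943, against 0.973 between those. Fibroblast transcripts were abundant throughout, with the 9 fibroblast markers summing to between 2016 and 2159 TPM in MGT+TMP269, 7277 and 7846 TPM in MGT, and 5867 and 11158 TPM in DsRed. Markers of neutrophils and of T and B cells were near 0, at sums of at most 3.65 and 1.22 TPM in any library. Endothelial markers summed to at most 19.6 TPM. Epicardial markers summed to 368 to 399 TPM in MGT+TMP269, 334 to 348 TPM in MGT and 113 to 170 TPM in DsRed. For mast cell markers the sums were 4.83 to 6.74, 5.18 to 6.92 and 0.366 to 0.939 TPM in the same order. In bulk RNA, fewer cells of a type and less RNA per cell cannot be told apart.

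**Figure D1:**
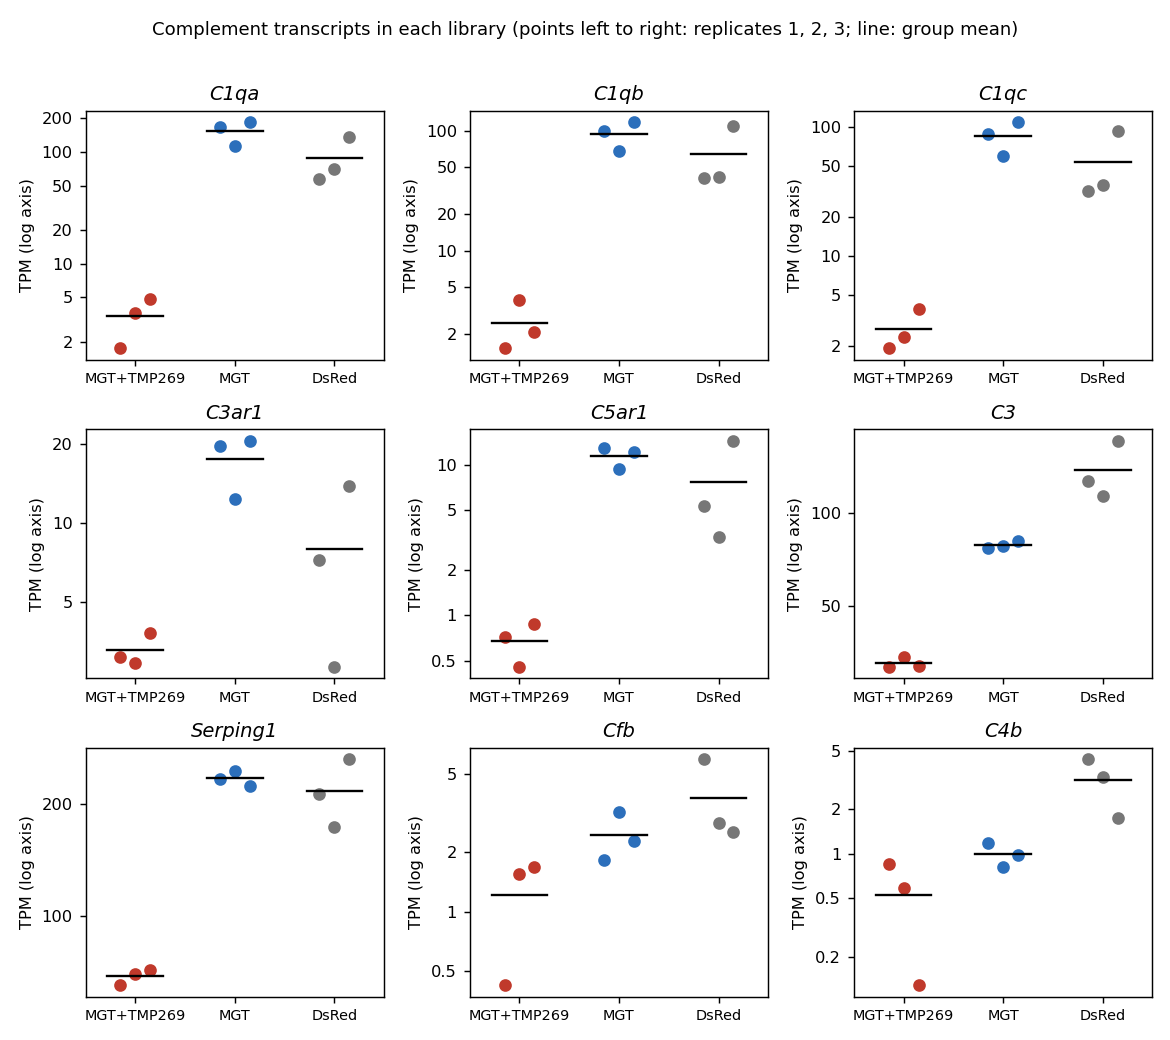
TPM of the 9 complement genes in each library on log axes, with 3 points per group for replicates 1 to 3 and a line at the group mean. The C1q chains, C5ar1, C3, Serping1 and Cfb were lower in all 3 MGT+TMP269 libraries than in any other library, as shown by C1qa at no more than 4.86 TPM there. For Cfb the gap was small, from 1.69 TPM in MGT+TMP269 to 1.83 TPM in MGT.

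C1qa, the A chain of C1q, had 1.75, 3.59 and 4.86 TPM in MGT+TMP269 replicates 1 to 3, 166, 113 and 185 TPM in MGT, and 57.7, 70.5 and 137 TPM in DsRed. The MGT+TMP269 libraries did not overlap with either other group, while DsRed replicate 3 lay within the MGT range. C1qb, the B chain, had 1.53, 3.89 and 2.11 TPM in MGT+TMP269, 98.5, 67.7 and 117 TPM in MGT, and 40.3, 41.4 and 108 TPM in DsRed. C1qc, the C chain, had 1.91, 2.37 and 3.85 TPM in MGT+TMP269, 88.0, 59.6 and 109 TPM in MGT, and 32.1, 35.8 and 93.3 TPM in DsRed. All 3 chains therefore had the same layout, low in every MGT+TMP269 library and highest in MGT replicate 3.

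Mean levels of C1qa were 3.40 ± 1.57 TPM with TMP269 and 155 ± 37.2 TPM in MGT (SD, n = 3 each), a log2 fold change of −5.18 ± 0.37 (SE) with limma's adjusted p of 5.4e-05. For C1qb the log2 fold change was −4.79 ± 0.40 (limma adjusted p = 0.00013), and for C1qc −4.53 ± 0.40 (limma adjusted p = 0.000178). The 95% intervals of the chains overlapped, from −6.01 to −4.35 for C1qa and from −5.43 to −3.63 for C1qc, and the difference between chains was not tested. Against DsRed, MGT+TMP269 had C1qa 26.0-fold lower, C1qb 25.3-fold lower and C1qc 19.8-fold lower, with limma adjusted p-values of 3.23e-05, 8.3e-05 and 0.000142. Log2 fold changes are differences of log2(TPM + 1), which understate changes that end near 1 TPM, and folds are ratios of mean TPM.

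The chains stood in similar proportions to each other in MGT and DsRed. C1qa made up 47.1%, 47.0% and 44.9% of the summed C1q TPM in MGT and 44.3%, 47.7% and 40.5% in DsRed. With TMP269 its share was 33.7%, 36.5% and 44.9% of sums of only 5.19, 9.85 and 10.8 TPM. The share of C1qb averaged 29.5% ± 9.98 with TMP269, 28.2% ± 0.313 in MGT and 30.3% ± 2.04 in DsRed (SD, n = 3 each). The shares thus varied most in the libraries with the least C1q RNA, and their counting error is unknown.

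The 3 C1q genes are neighbours on chromosome 4 in RefSeq's gene order, with C1qc between C1qb and C1qa and no other protein-coding gene among them. Because they moved together, the sequences upstream of their starts are shown, beside that of C3, whose pattern differed. RefSeq's promoter table (build GRCm38.p6, not the mm9 build named for this study) matched 5 of the 9 members, among them C1qb (chr4:136886201-136886450, minus strand), C1qc (chr4:136892915-136893164, minus strand) and C3 (chr17:57228137-57228386, minus strand). Each run below gives the 250 bases before the annotated start, 5′ to 3′ along the gene. Capitals mark GAGGAA, a core motif of PU.1, the myeloid transcription factor encoded by Spi1, or its reverse complement.
C1qb: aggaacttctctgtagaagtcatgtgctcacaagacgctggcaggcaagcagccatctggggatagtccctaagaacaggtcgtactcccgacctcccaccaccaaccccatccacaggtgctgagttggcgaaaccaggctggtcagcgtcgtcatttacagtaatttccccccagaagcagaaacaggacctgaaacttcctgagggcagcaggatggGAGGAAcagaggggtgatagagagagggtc
C1qc: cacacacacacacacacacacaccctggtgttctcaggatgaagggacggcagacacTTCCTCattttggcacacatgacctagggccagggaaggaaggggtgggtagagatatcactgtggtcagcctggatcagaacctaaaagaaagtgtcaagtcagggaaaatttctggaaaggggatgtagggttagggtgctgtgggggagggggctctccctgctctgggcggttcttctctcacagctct
C3: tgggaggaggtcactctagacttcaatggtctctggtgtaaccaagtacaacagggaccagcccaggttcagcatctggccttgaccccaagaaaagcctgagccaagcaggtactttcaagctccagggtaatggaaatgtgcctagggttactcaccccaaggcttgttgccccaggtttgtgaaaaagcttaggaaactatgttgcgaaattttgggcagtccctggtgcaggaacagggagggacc

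GAGGAA was found once upstream of C1qb, at position −30 from the start, and once upstream of C1qc on the other strand, at position −193. It was not found in the windows of C3, C3ar1 or C5ar1. Of 32851 RefSeq promoter windows of the same length, 23.3% held it on either strand, so a match is common and describes only these letters. The interferon-response motif ISRE, the STAT motif TTCNNNGAA, the MEF2 motif and the T-box motif AGGTGT were in none of the 5 windows on either strand, and were in 2.98%, 7.02%, 3.20% and 11.8% of all windows. The GATA motif AGATAA was in the window of C3ar1 at 2 places and in 9.99% of all windows. A loose form of the NF-kappaB motif, which can overlap itself, matched C1qb, C1qc, C3 and C3ar1, and 45.8% of all windows.

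C3ar1, the receptor for the C3a fragment, had 3.08, 2.92 and 3.81 TPM in MGT+TMP269, 19.6, 12.3 and 20.6 TPM in MGT, and 7.19, 2.82 and 13.9 TPM in DsRed. MGT+TMP269 lay below every MGT library but overlapped with DsRed, where replicate 2 was the lowest of all 9. The log2 fold change against MGT was −2.09 ± 0.43 (limma adjusted p = 0.0154). That call was lost without MGT replicate 1 (limma adjusted p = 0.0701), MGT replicate 3 (0.0731), MGT+TMP269 replicate 1 (0.0622) or MGT+TMP269 replicate 2 (0.0623). The log2 fold change lay between −2.31 and −1.96 with any 1 library left out, and the lowest limma adjusted p there was 0.000807. Against DsRed it was −0.87 ± 0.43 and was not called (limma adjusted p = 0.173), but was called without DsRed replicate 2 (log2 −1.38, limma adjusted p = 0.00734).

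C5ar1, the receptor for C5a, had 0.714, 0.455 and 0.872 TPM in MGT+TMP269, 13.0, 9.44 and 12.2 TPM in MGT, and 5.30, 3.30 and 14.5 TPM in DsRed. All MGT+TMP269 libraries were below 1 TPM and below every other library. The log2 fold change was −2.90 ± 0.41 against MGT (limma adjusted p = 0.00206) and −2.16 ± 0.41 against DsRed (limma adjusted p = 0.00464). C5ar1 and C4b passed the filter of a mean of at least 1 TPM over all libraries although their MGT+TMP269 mean was below it. For C4b the MGT mean was below it as well.

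C3, the protein on which all complement pathways converge, had 31.9, 34.3 and 32.0 TPM in MGT+TMP269, 77.3, 78.2 and 81.2 TPM in MGT, and 127, 113 and 171 TPM in DsRed. The groups formed 3 separate steps with no overlap. C3 fell with TMP269 against MGT (log2 −1.24 ± 0.15, limma adjusted p = 0.000947) and in MGT against DsRed (log2 −0.77 ± 0.15, limma adjusted p = 0.00839, 1.74-fold). Against DsRed, MGT+TMP269 was 4.19-fold lower (log2 −2.01 ± 0.15, limma adjusted p = 1.36e-05).

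Serping1, the gene of the C1 inhibitor, which blocks the proteases bound to C1q, was the most abundant of the 9 in every group by its mean. It had 65.1, 69.8 and 71.7 TPM in MGT+TMP269, 235, 246 and 225 TPM in MGT, and 213, 173 and 265 TPM in DsRed. MGT+TMP269 lay below both other groups, whose ranges overlapped. Serping1 fell with TMP269 against MGT (log2 −1.76 ± 0.15, limma adjusted p = 0.00013) and against DsRed (log2 −1.62 ± 0.15, limma adjusted p = 4.93e-05). Between MGT and DsRed the log2 fold change was 0.13 with a 95% interval from −0.20 to 0.47 (limma adjusted p = 0.633), so changes within that interval cannot be told from none. It was −0.0052 under median-of-ratios scaling and −0.016 without DsRed replicate 2.

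Cfb, factor B, had 0.422, 1.55 and 1.69 TPM in MGT+TMP269, 1.83, 3.22 and 2.29 TPM in MGT, and 5.95, 2.82 and 2.55 TPM in DsRed. The MGT+TMP269 and MGT libraries did not overlap but were close, and the log2 fold change of −0.67 ± 0.34 was not called (limma adjusted p = 0.301). Against DsRed it was −1.09 ± 0.34 (limma adjusted p = 0.0476). That call was lost without any 1 of the 3 MGT libraries, the 3 MGT+TMP269 libraries or DsRed replicate 1, with limma adjusted p-values from 0.0635 to 0.157. Cfb lies next to C2 in RefSeq's gene order, and reads near their boundary could be assigned to either.

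C4b, one of the C4 genes, was the lowest, with 0.848, 0.589 and 0.128 TPM in MGT+TMP269, 1.19, 0.815 and 0.974 TPM in MGT, and 4.37, 3.32 and 1.76 TPM in DsRed. MGT+TMP269 and MGT overlapped and were not called different (log2 −0.41 ± 0.29, limma adjusted p = 0.478). MGT lay below every DsRed library at an adjusted p just past the threshold (log2 −1.01 ± 0.29, limma adjusted p = 0.0562), which became 0.0174 without DsRed replicate 3. MGT+TMP269 was called lower than DsRed (log2 −1.42 ± 0.29, limma adjusted p = 0.00777). C4b passed the filter only through its DsRed mean of 3.15 TPM, since its MGT mean was 0.993 TPM. Its differences from DsRed therefore only describe these libraries. Mouse C4b has a near-identical copy, C4a, so its value is uncertain.

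**Figure D2:**
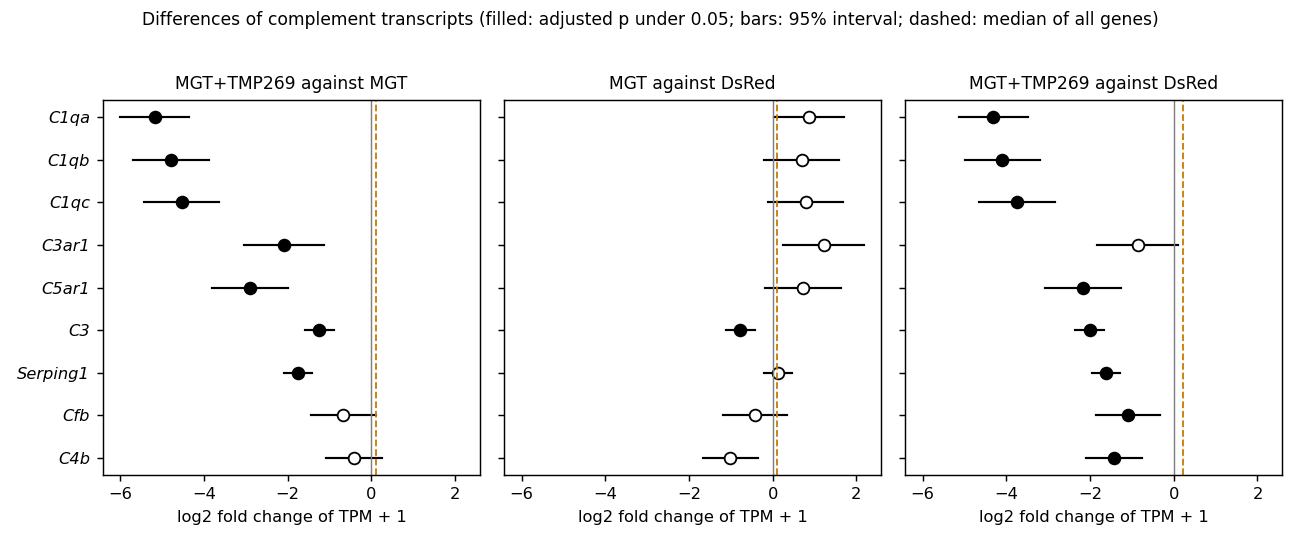
Log2 fold change of TPM + 1 for each gene in the 3 comparisons, with 95% intervals from limma, filled points for an adjusted p under 0.05 and a dashed line at the median of all tested genes. The C1q chains lay between −5.18 and −4.53 with TMP269 against MGT, and C3 was the one filled point for MGT against DsRed.

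In order of mean level, DsRed had Serping1 at 217 TPM, C3 at 137 TPM and the C1q chains between 53.8 and 88.5 TPM. In MGT the C1q chains, at 85.5 to 155 TPM, stood above C3 at 78.9 TPM, though C1qb and C1qc overlapped with C3. With TMP269 the order was Serping1 at 68.9 TPM, C3 at 32.8 TPM, and then C1qa at 3.40 TPM and C3ar1 at 3.27 TPM, which did not differ beyond their spread.

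The mean of the C1q chains stood below that of the stromal components with TMP269 and above it in MGT on a log scale. The mean log2(TPM + 1) of the C1q chains minus that of C3, C4b, Cfb and Serping1 was −1.67, −1.25 and −1.05 in MGT+TMP269, 2.63, 1.99 and 2.85 in MGT, and 0.44, 1.01 and 2.12 in DsRed. On this scale stromal components were ahead in the MGT+TMP269 libraries only, and MGT and DsRed overlapped. The stromal mean on this scale is held down by C4b and Cfb, which averaged 0.993 and 2.44 TPM in MGT. Serping1, at 235 TPM in MGT, stood above each C1q chain there. On the TPM scale the summed C1q TPM was 0.0528, 0.0926 and 0.103 times the summed stromal TPM in MGT+TMP269, 1.12, 0.732 and 1.33 times in MGT, and 0.371, 0.505 and 0.771 times in DsRed. By these sums, which Serping1 and C3 dominate, stromal components were also ahead in all DsRed libraries and in MGT replicate 2. The stromal genes themselves moved unequally: the ratio of C3 to Serping1, chosen after the values were seen, was 0.476 ± 0.025 in MGT+TMP269, 0.336 ± 0.023 in MGT and 0.632 ± 0.031 in DsRed (SD, n = 3 each). Its ranges did not overlap between any pair of groups.

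Macrophage markers were lower with TMP269, as the C1q chains were. The summed TPM of 23 such markers in the table, which do not include complement members, was 135 to 202 in MGT+TMP269, 1933 to 3605 in MGT and 742 to 2070 in DsRed. Of the 23, 22 passed the filter and were called lower than in MGT, where 5.97% of all tested genes were. Their median log2 fold change was −2.89 beside 0.11 over all tested genes. This tally describes the list only, since 6 of the 22 had a mean under 1 TPM with TMP269 and passed through their level in the other groups. The marker that did not pass, Cd163, was at 0 in MGT+TMP269 replicates 1 and 3 and in all DsRed libraries. How much of the fall in C1q goes with that of the markers was not tested.

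Summed C1q TPM was also low beside the summed TPM of these markers. The ratio depends on which markers lead the sum, since single markers fell unequally. Against MGT, Cd68 fell 3.66-fold and Mrc1 34.3-fold, beside 31.5-fold for C1qc and 45.4-fold for C1qa. Mrc1 averaged only 0.211 TPM with TMP269. Summed over the chains, C1q TPM equalled 3.85%, 6.45% and 5.36% of the summed marker TPM in MGT+TMP269, 12.5%, 12.4% and 11.4% in MGT, and 16.5%, 19.9% and 16.4% in DsRed. Without Lyz2, the lysozyme gene that dominates the sum, the values were 7.55%, 13.1% and 10.6% in MGT+TMP269, 39.9%, 40.1% and 40.0% in MGT, and 38.3%, 50.6% and 44.7% in DsRed. The MGT+TMP269 libraries were below all others on both measures, and the ratio is a description without a test.

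**Figure D3:**
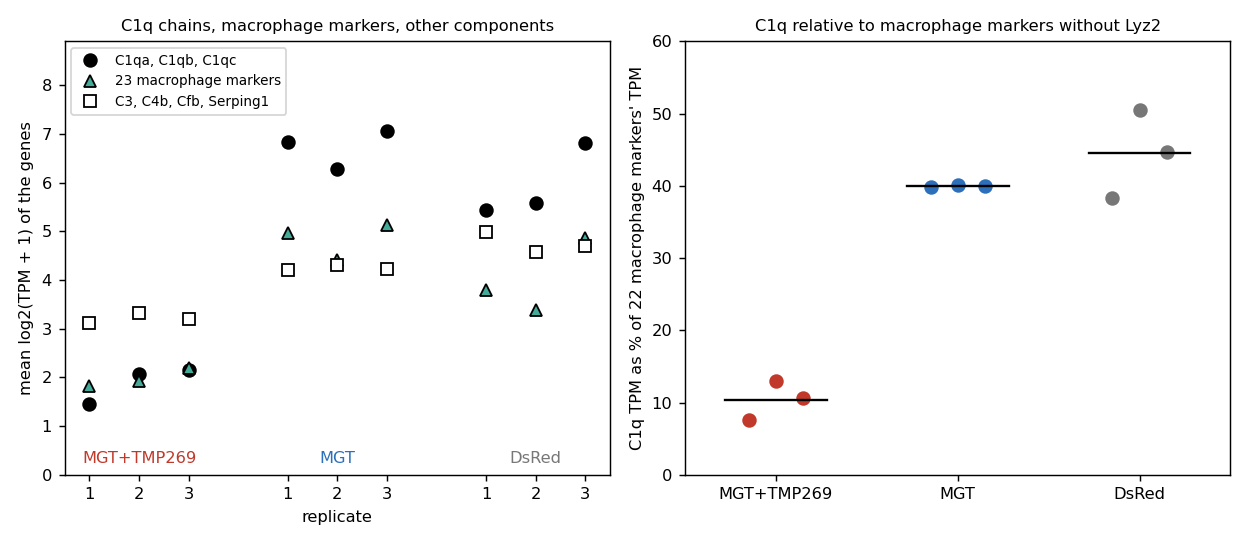
Left, mean log2(TPM + 1) per library of the C1q chains (circles), 23 macrophage markers (triangles) and C3, C4b, Cfb and Serping1 (squares). Right, summed C1q TPM as a percentage of the summed TPM of the markers without Lyz2, with group means as lines; the MGT+TMP269 libraries lie at 7.55% to 13.1% and the MGT libraries at about 40.0%.

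Of 9 fibroblast markers, 6 fell with TMP269 against MGT and none rose, with a median log2 fold change of −1.22. Over all tested genes 5.97% were called lower and 3.32% higher, with a median of 0.11. All 3 smooth muscle markers also fell (log2 −2.70 to −0.67), at sums of 4422 to 4504 TPM with TMP269 and 7900 to 8028 TPM in MGT. Of 8 cardiomyocyte markers 6 rose (median log2 1.28), at sums of 6815 to 7369 TPM with TMP269, 4513 to 5007 TPM in MGT and 171 to 258 TPM in DsRed. The part of these shifts in the values of C3 and Serping1 was not tested. Among all 13228 tested genes, the one with the pattern most like C3 over the 9 libraries was Dcn, which codes for decorin, a proteoglycan of fibroblasts. The root mean square difference of their centred log2(TPM + 1) was 0.098. Dcn had 143, 155 and 150 TPM in MGT+TMP269, 342, 341 and 368 TPM in MGT, and 621, 472 and 640 TPM in DsRed. Tmem45a and Angpt4 followed at 0.148 and 0.168. Closest to Serping1 were Dkk3, a secreted glycoprotein, at 0.162, the cytokine subunit gene Ebi3 at 0.170 and the scavenger receptor gene Ssc5d at 0.176. Ebi3 had only 0.116, 0.111 and 0 TPM in MGT+TMP269 and 2.40, 2.25 and 2.43 TPM in MGT. At such levels the added 1 TPM narrows log2 differences.

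For C1qa the closest genes were the other chains, C1qb at 0.313 and C1qc at 0.332. The first outside the complement set were Spp1, which codes for osteopontin, at 0.432, Alox5ap, needed for leukotriene synthesis, at 0.438 and the Fc receptor-like gene Fcrls at 0.533. Spp1 had 28.8, 33.3 and 35.9 TPM in MGT+TMP269, 889, 682 and 1545 TPM in MGT, and 305, 250 and 878 TPM in DsRed. C4b was closest to Plekha4, Rarres1 and Gap43, at 0.162, 0.242 and 0.253, and the nearest complement member, Cfb, was at 0.522, ranked 689. All these distances are descriptions over the same 9 libraries.

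Between MGT and DsRed, the calls for the C1q chains and the receptors turned on 1 library. The log2 fold changes of C1qa, C1qb, C1qc, C3ar1 and C5ar1 were 0.87, 0.69, 0.79, 1.22 and 0.73, and none was called (limma adjusted p = 0.18, 0.332, 0.265, 0.107 and 0.31). DsRed replicate 3 held the highest DsRed value of each, and its marker sum of 2070 TPM compares with 742 and 791 TPM in the other DsRed libraries. Without it all 5 were called higher in MGT, with log2 fold changes of 1.23, 1.16, 1.27, 1.69 and 1.26 and limma adjusted p-values of 0.0419, 0.0428, 0.0237, 0.0144 and 0.0126. In that fit 2 members, C3 and C4b, were called lower. Of the 22 macrophage markers, 2 were called higher in MGT with all libraries, Lyz2 and Ctss. That is 9.09%, close to the 8.14% of all tested genes called higher.

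The pathway's other genes were read from a list of 46 symbols in the table, of which 20 passed the filter and 26 were below it. With TMP269 against MGT, 6 of the 20 fell and none rose (median log2 −0.45 beside 0.11 over all tested genes), where 5.97% of all tested genes were called lower and 3.32% higher. Cfp, which codes for properdin, the stabiliser of the alternative pathway made by leukocytes, was at 4.97, 4.06 and 3.89 TPM with TMP269 and 27.3, 19.7 and 32.1 TPM in MGT, and fell 6.12-fold (limma adjusted p = 0.0041). The integrin chains Itgam and Itgb2, which form complement receptor 3, fell 19.9-fold and 6.60-fold (limma adjusted p = 0.00699 and 0.00612). Itgam is also 1 of the macrophage markers.

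The other 3 that fell with TMP269 were Cd93, a myeloid and endothelial surface protein, and Cd59a and Cd59b, inhibitors of the membrane attack complex. Cd93 was 2.91-fold lower (limma adjusted p = 0.017), a call lost without MGT replicate 1 or 3 or any 1 MGT+TMP269 library, at 0.0591 to 0.0789. Its log2 fold change lay between −1.51 and −1.33 with any 1 library left out, and its lowest limma adjusted p there was 0.000107. Cd59a and Cd59b were 1.80-fold and 2.05-fold lower (limma adjusted p = 0.024 and 0.0233). Cd59a was not called without any 1 MGT library or MGT+TMP269 replicate 2 or 3 (0.0505 to 0.105), nor Cd59b without any 1 MGT library or MGT+TMP269 replicate 1 or 2 (0.0683 to 0.106). Cd59a and Cd59b are near copies, so the split between them is uncertain. The proteases C1ra and C1s1, which work bound to C1q, were at 58.9 ± 1.0 and 43.9 ± 1.5 TPM with TMP269 and 85.1 ± 2.1 and 69.4 ± 4.7 TPM in MGT (SD, n = 3 each). Both lay below every MGT library, with log2 fold changes of −0.52 ± 0.16 and −0.65 ± 0.26 (SE). Neither was called (limma adjusted p = 0.0744 and 0.181), with a spread estimate that the DsRed libraries share. Their SD in DsRed was 12.0 and 21.0 TPM.

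MGT against DsRed gave another set, with 3 of the 20 higher and 2 lower, where 8.14% of all tested genes were higher and 4.18% lower. Clu codes for clusterin, a chaperone that also blocks the membrane attack complex. It had 1854, 1856 and 1874 TPM in MGT and 152, 142 and 223 TPM in DsRed, and rose 10.8-fold (log2 3.46 ± 0.16, limma adjusted p = 5.43e-07). With TMP269 it was at 2537, 2604 and 2812 TPM, above every MGT library (log2 0.51 ± 0.16, limma adjusted p = 0.0803). That became 0.0159 without DsRed replicate 2 and 0.00493 without DsRed replicate 3.

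Colec11, a collectin of the lectin pathway, fell 1.99-fold in MGT against DsRed (limma adjusted p = 0.00182).

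The remaining calls between MGT and DsRed were lost in most fits with 1 library left out. C1ra and Cfi, the factor I protease that cuts C3b and C4b, were 1.53-fold and 1.92-fold higher in MGT (limma adjusted p = 0.0278 and 0.03), and C2 was 2.66-fold lower (0.0499). C1ra was not called without any 1 MGT or MGT+TMP269 library (0.0523 to 0.102), nor Cfi without any 1 MGT library or MGT+TMP269 replicate 1 or 3 (0.0519 to 0.122). The MGT+TMP269 libraries enter this comparison only through the shared spread. Leaving 1 of them out left the log2 fold changes at 0.63 for C1ra and 0.81 for Cfi. C2 was not called without MGT replicate 2 or 3, MGT+TMP269 replicate 1 or 2, or DsRed replicate 1 or 3 (0.054 to 0.179). Clu and Lair1, a collagen-binding receptor that also binds C1q, were the 2 genes higher in MGT+TMP269 than in DsRed, Clu 15.4-fold and Lair1 4.56-fold (limma adjusted p = 1.82e-07 and 0.00713). Over all tested genes 14.7% were called higher there, a larger share than 2 of 20. Another 6 were lower there (8.06% over all tested genes), and the calls of Colec11, Colec12 and Cfp among them held without any 1 library. Those of Cd59a, Itgam and Itgb2 did not, without 2, 6 and 8 of the 9 libraries (limma adjusted p up to 0.0612, 0.101 and 0.121).

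**Figure D4:**
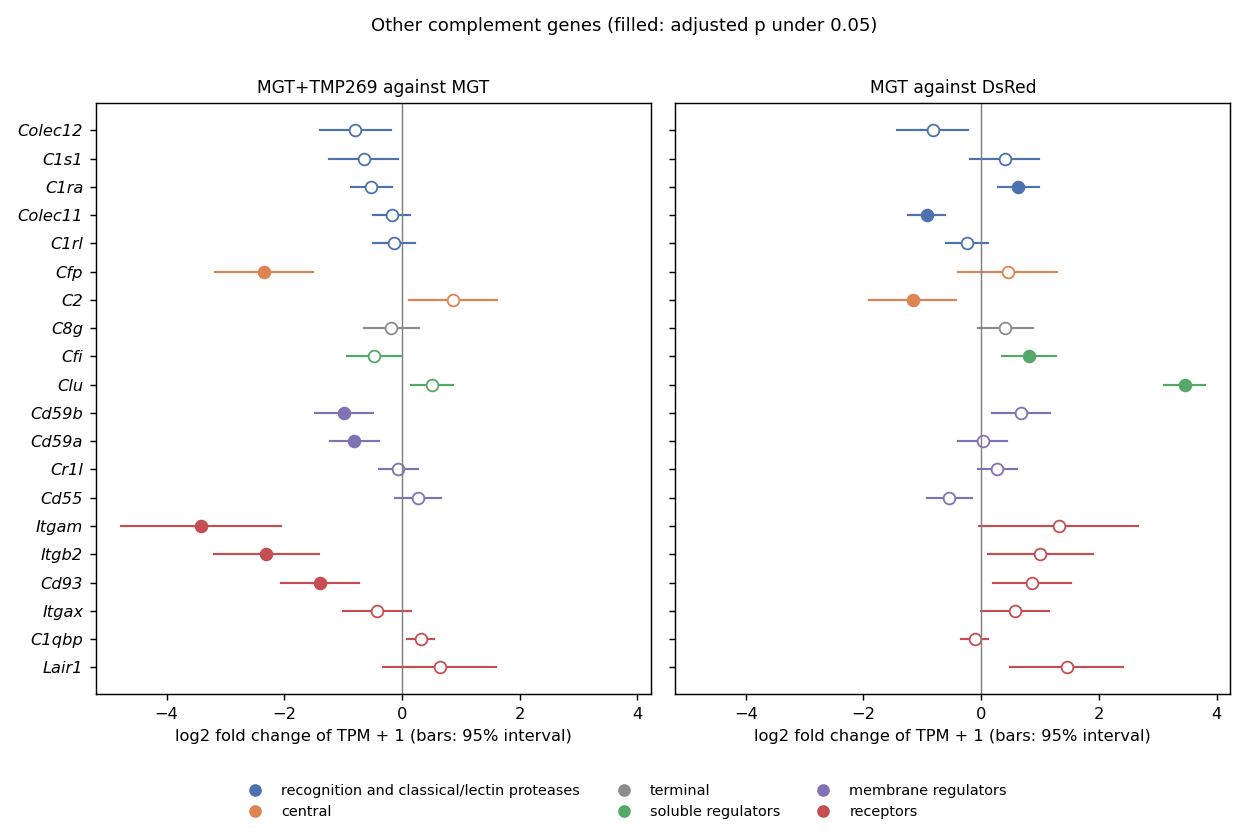
Log2 fold change of TPM + 1 with 95% intervals for the 20 other complement genes that passed the filter, coloured by role, filled where the adjusted p was under 0.05. With TMP269 against MGT the filled points are Cfp, Cd59a, Cd59b, Itgam, Itgb2 and Cd93, all lower; for MGT against DsRed, Clu lies far to the right, at 3.46.

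Spi1 and Csf1r, known for their role in macrophages, fell with TMP269, while Il6 rose. Of 24 genes tested that are known to act on complement expression or on macrophages, 3 rose and 4 fell with TMP269 against MGT, or 12.5% and 16.7%, where 3.32% of all tested genes rose and 5.97% fell. Spi1, the PU.1 gene, had 1.86, 0.882 and 1.28 TPM with TMP269 and 20.3, 11.7 and 17.2 TPM in MGT, and fell 12.2-fold (limma adjusted p = 0.00332). Csf1r, the receptor on which macrophages depend, fell 6.58-fold (limma adjusted p = 0.00265), and Tnf, an inflammatory cytokine, 12.6-fold (limma adjusted p = 0.00244). Tnf averaged 0.182 TPM with TMP269, 2.30 TPM in MGT and 0.957 TPM in DsRed, and passed the filter only through its level in MGT. Spi1 and Csf1r are also macrophage markers. Irf8, a myeloid factor, fell 6.92-fold (limma adjusted p = 0.0141), a call lost without MGT replicate 1 or 3 or MGT+TMP269 replicate 1 or 3 (0.0606 to 0.068).

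Il6, a cytokine known to induce C3 in liver, had 81.4, 93.4 and 79.1 TPM with TMP269 and 48.6, 43.7 and 43.8 TPM in MGT, and rose 1.87-fold (limma adjusted p = 0.00895). Cebpb, a transcription factor of the acute-phase response, and Ifngr2, an interferon-gamma receptor chain, had log2 fold changes of 0.58 and 0.71 (limma adjusted p = 0.0446 and 0.0498). Both calls were lost without any 1 MGT or MGT+TMP269 library, at limma adjusted p-values of 0.139 to 0.158 for Ifngr2. That of Cebpb was also lost without DsRed replicate 3 and under median-of-ratios scaling, at 0.0542 to 0.26 over all these fits. Ifngr2 was at 176 ± 2.3 TPM with TMP269 and 107 ± 2.8 TPM in MGT (SD, n = 3 each), without overlap. Its log2 fold change lay between 0.69 and 0.73 with any 1 library left out, and its lowest limma adjusted p there was 3.27e-05. It was also not called with a pseudocount of 0.1, no filter or the replicate block (0.0553 to 0.097). Csf1, the ligand of Csf1r, was at 675 ± 45.4 TPM with TMP269 and 486 ± 19.9 TPM in MGT (SD, n = 3 each), and was not called with all libraries (limma adjusted p = 0.173) but was without DsRed replicate 2 (0.00341).

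In MGT against DsRed, Il6 and Cebpb fell 2.48-fold and 1.69-fold (limma adjusted p = 0.00067 and 0.0101). C3 was also lower there, but with TMP269 against MGT it fell (log2 −1.24) while Il6 rose (log2 0.88). A link between these genes was not tested. Among the 24 genes 5 fell and 1 rose in MGT against DsRed, or 20.8% and 4.17%, where 4.18% of all tested genes fell and 8.14% rose. The calls of Cebpd, Il1r1, Csf1 and Tnf, the riser, were lost without 4, 5, 2 and 7 of the 9 libraries, at limma adjusted p-values up to 0.112, 0.0831, 0.0551 and 0.124. Against DsRed, MGT+TMP269 had 2 higher and 4 lower, or 8.33% and 16.7%, where 14.7% of all tested genes were higher and 8.06% lower. Lower were Spi1, Csf1r, Tnf and Il1r1, and higher were Ifngr2 and Rela. Of these, the calls of Spi1, 7.78-fold lower, and Ifngr2, 2.55-fold higher, held without any 1 library (limma adjusted p = 0.00825 and 0.000798 with all libraries). The other 4 calls each ended without 3 to 7 of the 9 libraries, at limma adjusted p-values up to 0.111.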

How the data were processed

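RNA sequencing measured gene expression in 9 libraries. The authors deposited 1 table of TPM values with 1 value per gene symbol and library, and all 9 columns were used. The submitters' processing notes name kallisto, DESeq2 and mm9. Versions, roles, annotation and strand setting: not given in the sources used here. Lines with a date in place of a symbol (25 of 34804) were left out. TPM has a fixed total, so genes that gain much reduce the values of others, and depth is unknown.

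Tests used limma 3.58.1 in R 4.3.3 on log2(TPM + 1), with 1 fit over all 9 libraries, group as the only term, 6 residual degrees of freedom, a variance trend, a two-sided test and Benjamini-Hochberg adjustment over the 13228 genes with a mean of at least 1 TPM. The procedure was tested on simulated data with large planted changes and the same spread in every library. That test does not cover small changes or an outlying library such as DsRed replicate 2. The members, the lists of other complement genes, regulators and markers and the motifs were chosen with earlier results of these data known. Named genes were the 9 members, listed genes called in at least 1 comparison, and the 3 genes nearest in pattern to each of C1qa, C3, C4b and Serping1. C1s1 was added after values were seen. Of the listed genes, 2 are not reported here and are not in the lists' counts. Alternatives were a pseudocount of 0.1, no filter, median-of-ratios scaling, a replicate block, array weights, a fit of the 2 groups compared and leaving out each library.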

Additional observations from a re-analysis of the deposited data

How the results depend on the processing

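The 7 members called lower with TMP269 against MGT stayed 7 under a pseudocount of 0.1, no filter, median-of-ratios scaling, a replicate block, array weights and a fit of the 2 groups compared, and ran from 6 to 7 with 1 library left out. For MGT+TMP269 against DsRed the number was 7 to 9 under these and with 1 library left out, against 8. For MGT against DsRed, 2 were lower under median-of-ratios scaling, the replicate block and array weights, C4b beside C3. With 1 library left out there were 1 to 2 lower and 0 to 5 higher. Under the replicate block 1 member, C3ar1, was called higher (limma adjusted p = 0.0469). For MGT+TMP269 against DsRed, Cfb was not called under the replicate block (limma adjusted p = 0.0811). Nor was it with a pseudocount of 0.1 (0.0565), no filter (0.101) or the fit of the 2 groups compared (0.104). Across all tested genes, same-numbered libraries did not vary together, with correlations of deviations from −0.070 to 0.132. Of 9 libraries, 3 correlated best with their own number, so the numbers are not taken as pairs. C1qa, C1qc and the summed macrophage markers were nonetheless highest in replicate 3 of each group. Marker sums there were 202 TPM in MGT+TMP269, 3605 TPM in MGT and 2070 TPM in DsRed. A replicate effect in these genes was not tested.

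Over all genes, TMP269 against MGT had 439 higher and 790 lower. These became 2868 and 1643 in a fit of those groups only, 3045 and 1773 with array weights, and the higher ones 276 with the replicate block. MGT against DsRed had 1077 and 553, which became 710 and 348 in the fit of those groups, with 920 lower under median-of-ratios scaling and 1402 lower with array weights. MGT+TMP269 against DsRed had 1950 and 1066, with 1055 higher in the fit of those groups, 1729 lower under median-of-ratios scaling and 1803 lower with array weights. With 1 library left out, the higher and lower counts ran from 168 to 2555 and 449 to 1505 for TMP269 against MGT, 720 to 1660 and 345 to 1808 for MGT against DsRed, and 1101 to 2830 and 736 to 2021 for MGT+TMP269 against DsRed, each time highest without DsRed replicate 2.

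Median-of-ratios scaling moved the median of all genes from 0.11, 0.11 and 0.22 to 0.0092, −0.013 and −0.0050 in the 3 comparisons, and gave 1149 higher genes beside 920 lower for MGT against DsRed and 1566 beside 1729 for MGT+TMP269 against DsRed. Relative to the deposited scale's medians, C1qa, C3 and Serping1 differed by −5.29, −1.35 and −1.86 with TMP269 against MGT. The sign of Serping1 for MGT against DsRed turned to −0.0052 under that scaling, with a range from −0.016 to 0.29 when 1 library was left out. Depth, which is unknown, limits the C1q, C4b and Cfb values near 1 TPM.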
